A study of Mus musculus with 7 samples.

Results

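Expression of 10 genes of the NF-kappaB system was followed in CD4 T cells sorted from tumours of mice: the 5 subunit genes Nfkb1, Nfkb2, Rel, Rela and Relb, and the 5 inhibitor genes Nfkbia, Nfkbid, Nfkbie, Nfkbiz and Tnfaip3. They were chosen by name from the 15588 genes of the deposited count table, and all 10 had a row there and were tested. The mice carried hepatocellular carcinoma transplanted into the liver, and cells were taken when the model had been set up for 0 days (2 libraries) or 7 days (5 libraries). Strain, age, genotype and any further treatment are not given in the labels, nor what tissue stood for tumour on day 0. Whether each library came from its own animal is not stated, and the p-values then cover only the variation among these 7 libraries, which may be technical.

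NF-kappaB is a family of transcription factors that bind DNA as dimers. In a resting cell the inhibitors of the IkappaB type hold the dimers in the cytoplasm. Engagement of the T cell receptor, CD28 or receptors of the TNF family activates the IkappaB kinase, the inhibitor is degraded, and the dimers enter the nucleus, where they switch on genes of survival and activation together with the genes of their own inhibitors. In T cells the pathway serves activation, survival and the development of regulatory T cells.

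Total counts lay between 21910818 and 28333855 per library, and the 10 genes together took from 0.144% to 0.304% of them. Libraries carry the final digit of their column as a name (2 and 3 at day 0, and 1, 2, 3, 5 and 6 at day 7), which differs from the numbering of the sample titles. The T cell markers were at similar sums in all libraries (3086 to 3747 CPM, counts scaled to a common library size, over 7 genes). Cd4 was at 382 and 398 CPM on day 0, at 476 to 593 CPM in day 7 libraries 1, 2 and 3, and at 909 and 944 CPM in libraries 5 and 6. Day 7 libraries 5 and 6 stood apart from the rest. The CD8 genes Cd8a and Cd8b1 summed to 204 and 177 CPM there. Their sum was between 11.1 and 18.3 CPM in the other day 7 libraries and 3.61 and 2.29 CPM at day 0. The 6 macrophage and monocyte markers summed to 236 and 132 CPM there and to at most 27.9 CPM elsewhere, and the 6 dendritic cell markers to 199 and 109 CPM against at most 60.7 CPM. Most of the dendritic cell sum there was Cd74 (127 and 78.8 CPM) and H2-Aa (53.6 and 20.9 CPM). Of the rest, Xcr1 and Zbtb46 were highest in day 0 library 2 (10.3 and 4.93 CPM), and Flt3 and Clec9a in day 7 library 5 (8.03 and 2.12 CPM). The 5 NK cell markers, nearly all of it Klrb1c, summed to 189 and 209.7 CPM in day 7 libraries 5 and 6. Their sum was 372 to 445 CPM in the other day 7 libraries and 631 and 717 CPM at day 0. The lower sum at day 7 was that of Klrb1c alone. Eomes went the other way, with 6.61 and 4.69 CPM at day 0 and at least 14.83 CPM in every day 7 library. Ncr1, Klra4 and Klra8 overlapped between the days. The 5 hepatocyte markers, mostly Alb, were highest in day 7 libraries 1, 2 and 3, with sums of 40.8, 29.1 and 35.9 CPM. Their sum was at most 7.42 CPM in the other 4 libraries. B cell markers were between 0.0411 and 41.97 CPM in all libraries. The sum of dendritic cell markers was higher in every day 7 library than at day 0, as was the sum of B cell markers, with the smallest p the exact permutation test can give (two-sided p = 0.0476, and 0.206 adjusted over 13 cell types). The part of these other cells in the results on the 10 genes was not tested. Fewer cells of a type and less RNA per cell cannot be told apart in such bulk libraries.

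Several genes of the family are known targets of NF-kappaB, which binds DNA elements called kappaB sites. RefSeq (GRCm38.p6) gave 12 windows for 7 of the 10 genes (Nfkb2, Rel, Rela, Nfkbia, Nfkbid, Nfkbie and Tnfaip3), each from 250 bases before to 50 bases after a start of transcription. The degenerate kappaB consensus motif was searched on both strands. It was found in 8 of the 12 windows and in 6 of the 7 genes. Of all 32851 windows of this length 4.51% held it, and of their 27025 genes 5.14% did. Windows 2 and 3 of Nfkb2 overlap and hold the same GGGACTTTCC, which is counted in both. The gene without a match in its window was Rela. A match describes letters only and is not evidence of binding in these cells. Of the genes with a match, 4 are shown, chosen after their levels were seen. Of these, 3 are inhibitor genes that were lowest in day 7 libraries 1, 2 and 3. The other, Nfkb2, is a subunit gene whose levels overlapped between the days. Rel and Nfkbie also had a match. The subunit gene Rel was lowest in the same 3 libraries, and within day 7 the inhibitor gene Nfkbie was lowest in libraries 5 and 6. The choice therefore ties no match to a level. Matches are in capitals, and one on the opposite strand appears here as its reverse complement.
Tnfaip3, chr10:19015361-19015660, minus strand: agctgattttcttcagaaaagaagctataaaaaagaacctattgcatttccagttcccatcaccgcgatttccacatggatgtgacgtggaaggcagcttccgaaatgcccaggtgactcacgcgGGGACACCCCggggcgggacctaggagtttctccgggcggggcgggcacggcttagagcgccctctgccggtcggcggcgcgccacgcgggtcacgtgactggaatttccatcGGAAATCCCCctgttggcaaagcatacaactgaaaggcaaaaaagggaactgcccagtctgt
Nfkbid, chr7:30422156-30422455, plus strand: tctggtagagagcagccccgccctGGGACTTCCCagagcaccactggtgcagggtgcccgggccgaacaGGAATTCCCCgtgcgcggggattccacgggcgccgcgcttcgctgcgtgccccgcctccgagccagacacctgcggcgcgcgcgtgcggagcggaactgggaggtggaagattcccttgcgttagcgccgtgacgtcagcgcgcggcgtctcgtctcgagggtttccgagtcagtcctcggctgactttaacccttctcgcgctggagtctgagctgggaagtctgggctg
Nfkbia, chr12:55492598-55492897, minus strand: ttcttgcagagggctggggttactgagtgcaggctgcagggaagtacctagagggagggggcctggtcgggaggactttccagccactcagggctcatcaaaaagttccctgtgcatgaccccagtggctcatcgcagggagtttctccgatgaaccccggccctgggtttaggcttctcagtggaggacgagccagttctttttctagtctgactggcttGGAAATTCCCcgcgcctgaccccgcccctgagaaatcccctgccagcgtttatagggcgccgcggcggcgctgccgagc
Nfkb2, chr19:46304487-46304786, plus strand: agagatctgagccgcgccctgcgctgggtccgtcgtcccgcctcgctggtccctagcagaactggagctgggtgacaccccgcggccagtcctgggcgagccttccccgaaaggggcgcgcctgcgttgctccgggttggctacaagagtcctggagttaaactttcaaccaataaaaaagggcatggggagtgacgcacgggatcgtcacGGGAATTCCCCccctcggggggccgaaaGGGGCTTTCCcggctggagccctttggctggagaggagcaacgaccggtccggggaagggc
Read in the direction of the motif, the matches of Tnfaip3 were GGGACACCCC, whose first base in the window lies 125 bases before the start, and GGGGATTTCC, 12 bases before it. Those of Nfkbid were GGGACTTCCC and GGGGAATTCC, 226 and 181 bases before the start. Nfkbid had 2 other windows with 0 matches, and Tnfaip3 had 1 such window. The single match of Nfkbia was GGGAATTTCC, 29 bases before the start. Nfkb2 had GGGAATTCCC and GGGGAATTCC, which overlap and begin 39 and 38 bases before the start, and GGGGCTTTCC, 11 bases before it.

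The inhibitor genes Tnfaip3 and Nfkbid were lower in every day 7 library than in both day 0 libraries, the genes of the 5 subunits overlapped between the days, and none of the 10 genes passed the test over all genes. With edgeR's quasi-likelihood test 0 of 10 had an adjusted p below 0.05, where 1.54% of the 12929 genes tested did (0.472% as lower at day 7). The number of all genes called lower, 61, was 30 or 38 when day 0 library 2 or 3 was left out and 40 without day 7 library 5. At an unadjusted p below 0.05 there were 3, Tnfaip3, Nfkbid and Nfkbiz, all lower at day 7, where 10.1% of all genes passed in either direction and 3.78% as lower. DESeq2, limma-voom, limma-voom with sample weights and edgeR without robust estimation each called 1 of the 10, Tnfaip3, as lower. Of all genes with an adjusted p, DESeq2 called 1.54% lower, limma-voom 0.495%, the form with sample weights 0.634% and edgeR without robust estimation 0.356%. Without day 7 libraries 5 and 6 edgeR called 3 lower, Tnfaip3, Nfkbid and Nfkbiz, where 1.86% of 12106 genes were called (0.884% as lower). For each of these 3 genes the libraries left out had the highest day 7 values, so that leaving them out had to give a larger change, and these calls are no independent support. Of the 10 genes, 2 did not overlap between the days, both lower at day 7, and 0 were higher without overlap. Of the 12929 genes tested, 1001 (7.74%) were lower without overlap and 973 were higher without overlap.

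**Figure D1:**
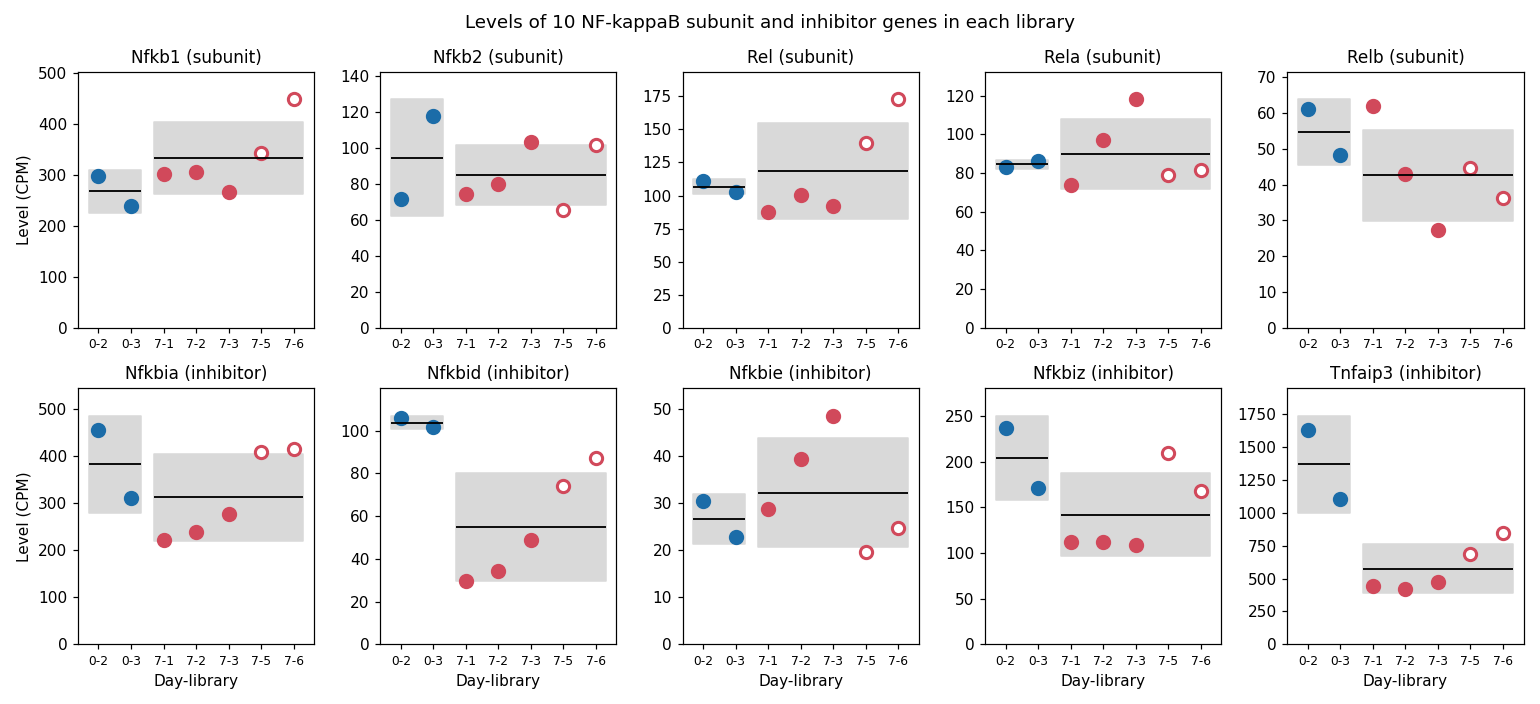
Level of each gene (CPM, linear axis from 0) in each library, written as day and library digit. Points are libraries (blue for day 0, red for day 7, open for day 7 libraries 5 and 6), lines are group means and grey bands are ± 1 SD. Tnfaip3 and Nfkbid have all 5 day 7 points below both day 0 points, and the other 8 genes overlap.

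Tnfaip3 (Entrez 21929) encodes A20, a ubiquitin-editing enzyme that shuts off signalling upstream of the IkappaB kinase. On day 0 it stood at 1629 CPM in library 2 and 1106 CPM in library 3, and on day 7 at 446, 418, 474, 686 and 846 CPM (libraries 1, 2, 3, 5 and 6 in this order, as for every gene that follows). Both day 0 libraries were above all 5 day 7 libraries, and within day 7 libraries 5 and 6 were the highest. The means were 1367 ± 369.8 CPM (SD, n = 2) and 574 ± 185 CPM (SD, n = 5), a log2 change of -1.25 ± 0.33 (standard error) and an adjusted p of 0.233 (edgeR). The adjusted p differed between tools and settings. It was 0.0823 with a minimum mean of 5 CPM, 0.0102 for edgeR without robust estimation, 0.0226 with DESeq2 and 8.82e-04 with limma-voom, at log2 changes from -1.27 to -1.25. Without day 7 library 6 the adjusted p was 0.0198 (log2 change -1.43), and without day 0 library 2 it was 0.725 (log2 change -0.94). With day 7 libraries 1, 2 and 3 alone against day 0 the log2 change was -1.63 ± 0.13 (edgeR adjusted p = 2.11e-06), a value that follows in part from leaving out the highest day 7 libraries.

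Nfkbid (Entrez 243910) encodes an atypical, nuclear IkappaB protein, IkappaBNS, which in mice takes part in inducing Foxp3. Its level was 106 and 102 CPM in the day 0 libraries, and 29.6, 34.2, 49.0, 74.0 and 87.3 CPM in the day 7 libraries. The groups did not overlap, although day 7 library 6 came close to day 0, and the highest day 7 library was 2.95 times the lowest. The means were 104 ± 3.16 CPM (SD, n = 2) and 54.8 ± 25.1 CPM (SD, n = 5). The log2 change was -0.92 ± 0.34 with an adjusted p of 0.284 (edgeR), and -1.48 ± 0.29 with an adjusted p of 0.0137 without day 7 libraries 5 and 6.

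Nfkbiz (Entrez 80859) encodes IkappaB-zeta, a nuclear IkappaB protein that acts as a coactivator of some NF-kappaB targets. It stood at 237 and 172 CPM on day 0 and at 112, 112, 109, 210.3 and 168 CPM on day 7. Day 7 libraries 1, 2 and 3 lay close together below both day 0 libraries, while library 5 lay between the day 0 values and library 6 just under the lower of them. The log2 change was -0.52 ± 0.24 (edgeR adjusted p = 0.472), and -0.89 ± 0.19 (adjusted p = 0.0211) without libraries 5 and 6.

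Nfkbia (Entrez 18035) encodes IkappaB-alpha, the classical inhibitor that is degraded on activation and made again by NF-kappaB itself. Its values were 456 and 310.4 CPM on day 0, and 222, 238, 277, 409 and 415 CPM on day 7. The groups overlapped, since day 7 libraries 5 and 6 exceeded day 0 library 3. The log2 change was -0.29 ± 0.27 (edgeR adjusted p = 0.844), turned to 0.013 without day 0 library 2, and was -0.65 ± 0.16 without day 7 libraries 5 and 6 (adjusted p = 0.0502, just above the threshold of 0.05).

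Nfkbie (Entrez 18037) encodes IkappaB-epsilon, a cytoplasmic inhibitor. It was at 30.4 and 22.9 CPM on day 0 and at 28.8, 39.5, 48.6, 19.7 and 24.8 CPM on day 7. The groups overlapped, and within day 7 libraries 5 and 6 were the lowest. Its log2 change, 0.28 ± 0.43 (edgeR adjusted p = 0.969), was the one positive value among the 5 inhibitor genes.

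Rela (Entrez 19697) encodes p65 and Nfkb1 (Entrez 18033) the p105 precursor of p50, the partners of the classical dimer. Rela stood at 83.0 and 86.1 CPM on day 0 and at 73.6, 97.3, 118, 78.8 and 81.8 CPM on day 7. Its day 7 values lay on both sides of day 0 (log2 change 0.09 ± 0.25, edgeR adjusted p = 0.9998), and the estimate was -0.028 without day 7 library 3. Nfkb1 was at 298 and 238 CPM on day 0 and at 302, 306, 265, 342 and 448 CPM on day 7. Only day 7 library 3 lay between the day 0 values, the other 4 day 7 libraries being above both (log2 change 0.31 ± 0.18, adjusted p = 0.595). Rel (Entrez 19696), which encodes c-Rel, a subunit most used in lymphocytes, was at 111 and 103 CPM on day 0. On day 7 it was at 87.7, 100.5, 92.2, 139.8 and 173 CPM. Libraries 1, 2 and 3 were below both day 0 values and libraries 5 and 6 above both, so that the log2 change of 0.15 ± 0.25 (adjusted p = 0.976) turned to -0.21 ± 0.22 (adjusted p = 0.884) without libraries 5 and 6, and to -0.018 without library 6.

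Nfkb2 (Entrez 18034), the gene of the p100 precursor of p52, and Relb (Entrez 19698), the gene of its partner RelB, form the dimer of the alternative pathway, which TNF family receptors such as OX40 and 4-1BB can drive. Nfkb2 was at 71.6 and 117 CPM on day 0 and at 74.3, 79.9, 103, 65.4 and 101 CPM on day 7. The day 0 libraries were nearly as far apart as all 7 libraries together (log2 change -0.16 ± 0.26, edgeR adjusted p = 0.979), and the estimate was 0.25 when library 3 of day 0 was left out. In the GENCODE M21 annotation 18.1% of the exonic bases of Nfkb2 overlap genes on the opposite strand, Psd among them, and whether strand was used in counting is not given in the sources used here; Psd was at 0 to 5.81 CPM. The other 9 genes had no exonic overlap there. Relb stood at 61.2 and 48.2 CPM on day 0 and at 61.9, 43.1, 27.5, 44.6 and 36.1 CPM on day 7. In 4 of 5 day 7 libraries it was below both day 0 values, and in library 1 it was marginally above both (log2 change -0.36 ± 0.34, adjusted p = 0.839).

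**Figure D2:**
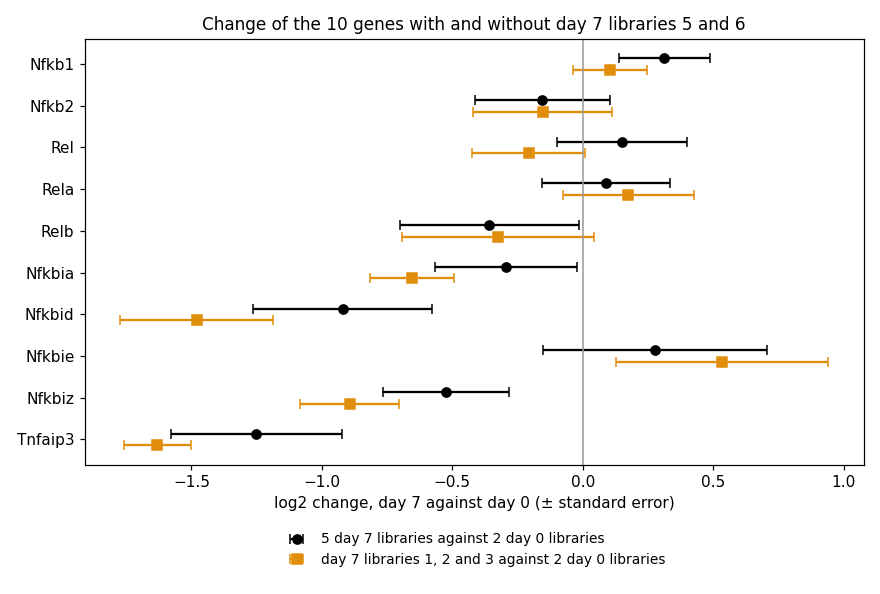
Log2 change of each gene, day 7 against day 0, with its standard error from edgeR. Circles use all 5 day 7 libraries and squares day 7 libraries 1, 2 and 3 only, both against the same 2 day 0 libraries. Tnfaip3 (-1.25 and -1.63), Nfkbid (-0.92 and -1.48) and Nfkbiz (-0.52 and -0.89) lie farthest to the left.

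Set side by side within a library, Tnfaip3 and Nfkbid were lower relative to the subunit genes in every day 7 library, and the other 3 inhibitor genes were not. The mean of log2(CPM + 1) over the 5 inhibitor genes was 7.82 and 7.42 on day 0, as against 6.65, 6.78, 7.01, 7.29 and 7.40 on day 7. Over the 5 subunit genes it was 6.71 in both day 0 libraries and 6.63, 6.67, 6.61, 6.69 and 6.90 in the day 7 libraries. The difference, inhibitors less subunits, was 1.11 and 0.71 at day 0 and 0.022, 0.11, 0.41, 0.60 and 0.49 at day 7, with no overlap between the days. Without Tnfaip3 and Nfkbid the days overlapped: over the other 3 inhibitors it was 0.52 and 0.055 at day 0 and -0.12, 0.019, 0.24, 0.24 and 0.025 at day 7. As a single pair, the log2 ratio of Tnfaip3 to Nfkb1 was 2.45 and 2.21 at day 0 and 0.56, 0.45, 0.83, 1.002 and 0.92 at day 7. That of Nfkbia to Rela was 2.44 and 1.84 at day 0, and 1.58, 1.28, 1.22, 2.36 and 2.33 at day 7, with libraries 5 and 6 between the day 0 values. The median log2 change was -0.52 for the 5 inhibitors and 0.09 for the 5 subunits, beside 0.04 for all genes tested. These ratios do not depend on the scaling of libraries. They were chosen after the values were seen and are given as a description.

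Early response genes had a similar order of libraries to the inhibitors. In a list of 26 early response and heat shock genes, 8 fell and none rose in the edgeR fit over all genes (median log2 change -0.88), where 0.472% of all genes fell. The list was chosen with earlier results of these data known, so its counts are a description and no independent support. The number called was 5 without day 0 library 2 or without day 7 library 2, and limma-voom called 12. Without day 7 libraries 5 and 6, which had the highest day 7 mean over the list, 19 fell, beside 0.884% of all genes. Junb, an AP-1 subunit gene, was at 1851 and 1562 CPM on day 0 and at 661, 645, 681, 932 and 942 CPM on day 7, a log2 change of -1.14 ± 0.15 (edgeR adjusted p = 6.79e-04). The mean of log2(CPM + 1) over the list was 8.39 and 8.02 at day 0 and 6.85, 6.96, 6.98, 7.92 and 8.02 at day 7. As for Tnfaip3, Nfkbid, Nfkbiz and Nfkbia, day 7 libraries 1, 2 and 3 were the lowest, and these libraries also had the highest hepatocyte marker sums. The part of hepatocyte RNA was not tested. Many of these genes are also induced while tissue is dissociated and cells are sorted, and the part of such handling in the levels of the inhibitors was not tested.

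**Figure D3:**
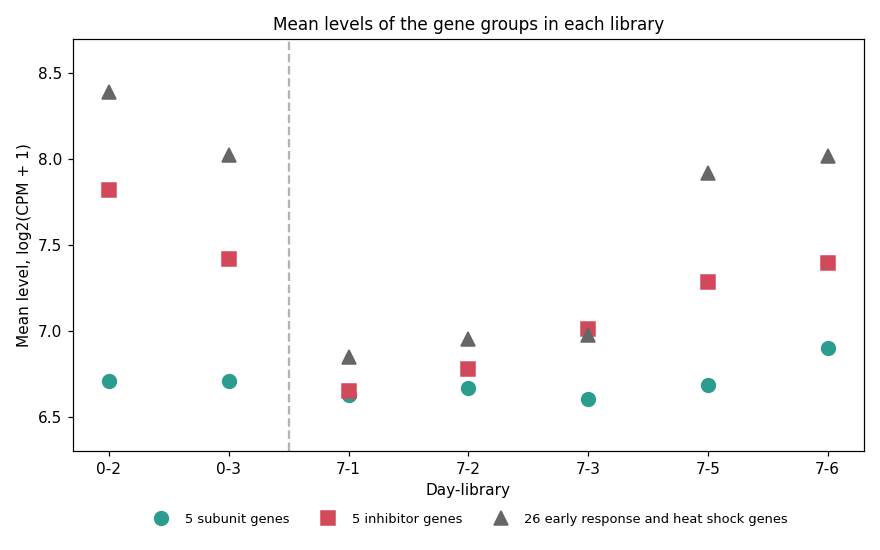
Mean of log2(CPM + 1) over the 5 subunit genes (circles), the 5 inhibitor genes (squares) and the 26 early response and heat shock genes (triangles) in each library, written as day and library digit. The dashed line parts the days, and the vertical axis starts above 0. The subunits stay between 6.61 and 6.90, the inhibitors run from 6.65 to 7.82, and both other groups are lowest in day 7 libraries 1, 2 and 3.

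Within day 7, libraries 5 and 6 were both above libraries 1, 2 and 3 for 6 of the 10 genes (Nfkb1, Rel, Nfkbia, Nfkbid, Nfkbiz and Tnfaip3), both below for Nfkbie, and mixed for Nfkb2, Rela and Relb. Of the 7099 tested genes with a mean of at least 20 CPM, 15.5% had both above and 16.2% both below. This grouping of libraries comes from the data and not from the labels. No test set libraries 5 and 6 against libraries 1, 2 and 3, and the fits without libraries 5 and 6 are alternatives that use the same grouping. Macrophages, dendritic cells and CD8 T cells, whose summed markers were highest in the same libraries (for dendritic cells mostly Cd74 and H2-Aa), also express NF-kappaB genes. The part of these cells was not tested.

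The patterns over the 7 libraries, centred on each gene's mean log2 level, gave some pairs of genes that were each other's nearest. Nfkbia and Nfkbiz were nearest to each other, with a root-mean-square difference of 0.17 on the log2 scale, as were Nfkb1 and Rel at 0.18, and Tnfaip3 and Nfkbid at 0.28. Rela and Nfkbie were also each other's nearest, but their distance of 0.27 was larger than the 0.21 by which Rela varied around its own mean. Nfkb2 and Relb had no such partner. Nfkb2 lay nearest to Rela (0.27) and Relb nearest to Nfkbiz (0.46, more than the 0.37 by which Relb varied around its own mean). Among 7029 other protein-coding genes of at least 20 CPM, the nearest to Tnfaip3 was Junb (0.17), to Nfkbid Spty2d1 (0.18), to Nfkbiz Hspa5 (0.10) and to Nfkbia Clk4 (0.14). With 7 libraries and so many candidates, such likeness describes these libraries only.

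Levels per length give an order of the 10 genes, using exon lengths from GENCODE M21, which may differ from those used in counting. Nfkbia was highest at day 7 with a mean of 194 CPM per kilobase, followed by Tnfaip3 with 79.4. The day 7 libraries of Nfkbia (138 to 258 CPM per kilobase) did not overlap those of Tnfaip3 (57.8 to 117), nor did these overlap those of Rela (24.0 to 38.5), which came next at 29.3. Nfkbiz (28.4), Nfkb1 (27.6), Nfkbid (23.4), Nfkb2 (18.5), Rel (15.9), Relb (10.97) and Nfkbie (10.6) followed, each overlapping its neighbour. At day 0 the order began with Nfkbia (238), Tnfaip3 (189), Nfkbid (44.2) and Nfkbiz (40.7), ahead of Rela (27.5).

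The rest of the pathway gave few calls. Over 5 lists of ligands, receptors, adaptors and kinases, other brakes, and targets, 133 genes besides the 10 were tested, of which 3 rose and 1 fell (3.01% called, beside 1.54% of all genes). Without day 7 libraries 5 and 6, 4 rose and 5 fell of 126, where 1.86% of 12106 genes were called (0.884% as lower). Zfp36, Ifng and Cd69, among those that fell, had their highest day 7 values in the libraries left out. Their calls are no independent support.

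Of 11 tested ligand genes none was called with edgeR, 1 was higher and 2 lower at an unadjusted p below 0.05, and DESeq2 called 1. Over all genes 10.1% passed the unadjusted threshold, and DESeq2 called 813 of the 12292 with an adjusted p. Cd40lg, the CD40 ligand of helper T cells, was at 206 ± 39.5 CPM (SD, n = 2) on day 0 and 134 ± 18.8 CPM (SD, n = 5) on day 7, with no overlap (edgeR adjusted p = 0.128). Tnfsf14, which encodes LIGHT, was at 121 ± 48.4 and 78.6 ± 19.0 CPM (adjusted p = 0.363), and Tnfsf11, which encodes RANKL, at 14.5 ± 3.08 and 30.4 ± 12.6 CPM (adjusted p = 0.469). Tnf itself was at 51.7 and 54.8 CPM on day 0 and at 40.0, 32.9, 57.4, 96.6 and 85.0 CPM on day 7.

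Of 23 tested receptor genes 2 rose and none fell. Tnfrsf9, which encodes 4-1BB, was at 9.81 and 12.9 CPM on day 0 and at 62.4, 57.6, 71.9, 74.6 and 56.2 CPM on day 7. Its levels were close together in all 5 day 7 libraries, libraries 5 and 6 included (log2 change 2.51 ± 0.37, edgeR adjusted p = 2.27e-04). Tnfrsf4, which encodes OX40, was at 2.87 and 0.214 CPM on day 0 and at 25.7, 27.6, 30.2, 35.0 and 49.9 CPM on day 7, with a log2 change of 4.46 ± 0.80. Its call was lost with limma-voom (adjusted p = 0.288), while leaving out day 0 library 2 gave a log2 change of 7.27. Tnfrsf8, which encodes CD30, had 0 counts in both day 0 libraries, where the floor of 3 counts over the group is 0.0569 CPM. On day 7 libraries 1, 2 and 3 had 11.3, 13.7 and 7.60 CPM and libraries 5 and 6 had 0 counts (edgeR adjusted p = 0.284). It is among the genes counted as higher without libraries 5 and 6, which are the day 7 libraries where it is at 0. Il1rl1, the receptor of IL-33, was at 15.9 ± 8.85 and 42.5 ± 10.1 CPM with no overlap (adjusted p = 0.137).

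None of the 34 adaptor and kinase genes was called with edgeR, DESeq2 or limma-voom, and 1, Map3k7, was higher at an unadjusted p below 0.05. Map3k7, the kinase TAK1 upstream of the IkappaB kinase, was at 78.8 ± 1.83 and 111 ± 15.1 CPM (edgeR adjusted p = 0.444). The catalytic subunit Ikbkb was at 199 ± 40.0 and 156 ± 33.5 CPM (adjusted p = 0.613) and the regulatory subunit Ikbkg at 88.7 ± 40.5 and 67.5 ± 13.5 CPM (adjusted p = 0.684).

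Among 30 other inhibitors and brakes 1 rose and 1 fell. Otud1, a deubiquitinase gene, was at 63.0 and 92.4 CPM on day 0 and at 20.04, 24.6, 25.3, 29.7 and 20.5 CPM on day 7. The day 7 libraries lay together at less than the lower day 0 value, with libraries 5 and 6 among the others (log2 change -1.69 ± 0.33, edgeR adjusted p = 0.00511; leaving out library 3 of day 0 gave 0.278). Zc3h12d, which encodes a Regnase family RNA-binding protein, rose from 8.65 and 14.2 CPM to 47.7, 55.4, 39.4, 57.4 and 69.7 CPM (log2 change 2.24 ± 0.41, edgeR adjusted p = 0.00232, lost with limma-voom at 0.105). Tnip1, which encodes a partner of A20, was at 164 ± 10.9 and 105 ± 15.2 CPM with no overlap (adjusted p = 0.149). Cyld, another deubiquitinase of the pathway, was at 393 ± 21.1 and 300.2 ± 27.8 CPM, also with no overlap (adjusted p = 0.252). Itch was at 214 ± 64.5 and 159 ± 9.45 CPM with no overlap (adjusted p = 0.391). Nfkbib, the gene of IkappaB-beta, was at 40.5 ± 6.24 and 26.9 ± 11.1 CPM (adjusted p = 0.680). Bcl3, an atypical IkappaB gene, was higher, at 20.03 ± 9.09 and 37.0 ± 8.81 CPM (adjusted p = 0.496). So were Tnfaip8l2 at 18.2 ± 10.6 and 41.2 ± 16.0 CPM (adjusted p = 0.351) and Usp18 at 12.3 ± 1.74 and 26.4 ± 9.32 CPM (adjusted p = 0.484). Usp18 had no overlap. Of the 30 log2 changes, 15 were positive and 15 negative. At an unadjusted p below 0.05 (edgeR) 3 were higher and 4 lower, beside 10.1% of all genes in either direction.

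Of 51 tested target genes, 8 of which are among the 10 genes themselves, 3 were higher and 8 lower at an unadjusted p below 0.05 (edgeR). Of all 12929 genes tested, 813 were higher and 489 (3.78%) lower at that threshold. The list was chosen with earlier results of these data known. At an adjusted p below 0.05, 0 target genes were called with edgeR, 4 with DESeq2 and 3 with limma-voom. Tnfaip3 was among those of DESeq2 and of limma-voom. Over all genes edgeR called 199 of 12929, DESeq2 813 of the 12292 with an adjusted p, and limma-voom 95 of 12929. Without day 7 libraries 5 and 6 edgeR called 6 target genes, all lower, beside 0.884% of all genes called lower. They were Tnfaip3, Nfkbiz, Zfp36, Fth1, Ifng and Cd69. Zfp36, which encodes an RNA-destabilising protein, was at 797 and 616 CPM on day 0 and at 326, 378, 361, 520.0 and 567 CPM on day 7, with no overlap between the days. Its adjusted p was 0.151 with all libraries and 1.91e-04 without libraries 5 and 6 (edgeR), which again had the highest day 7 values. Of all 12929 genes tested, 1001 (7.74%) were lower and 973 higher at day 7 without overlap. Of the target genes 7 were lower without overlap, Tnfaip3 among them, and 2 were higher, Csf1 and Ccl4. Among the lower were Ifng at 409 ± 104 and 196 ± 68.4 CPM (edgeR adjusted p = 0.276) and Cd69 at 275 ± 44.5 and 160 ± 55.0 CPM (edgeR adjusted p = 0.314). Birc3, an antiapoptotic target, was at 102 ± 10.8 and 107 ± 8.03 CPM, and Traf1 at 137 ± 33.5 and 138 ± 48.4 CPM. Icam1, an adhesion molecule gene, was at 139 ± 5.22 and 151 ± 47.1 CPM.

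**Figure D4:**
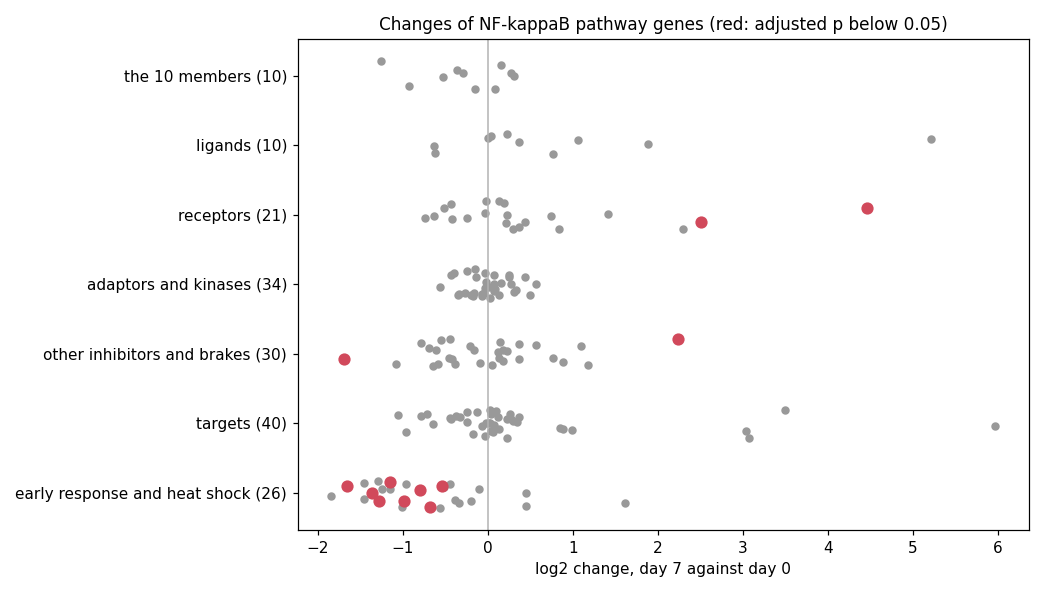
Log2 change, day 7 against day 0, of the 10 genes and of the tested genes of each list, with the number plotted in brackets. Each point is a gene, red where the edgeR adjusted p is below 0.05; the 10 genes are left out of the lists, and 6 genes with 0 counts at day 0 are not drawn. Red points are Tnfrsf9 and Tnfrsf4 among receptors, Otud1 and Zc3h12d among other brakes, and 8 early response and heat shock genes.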

How the data were processed

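TRIzol served to extract the RNA and an Illumina procedure to make the libraries, per the labels' protocols. Tools named in the submitters' processing notes are HISAT2 2.0.5, featureCounts 1.5.0-p3 and CASAVA 1.8, with no settings; the sources used here give no genome build, annotation or strand setting. The authors deposited 1 table of raw counts, with a row per gene and a column per library. Between 72.4% and 78.1% of counts from 2 to 200 were even, so low counts may stand for fewer fragments. Columns were assigned to a day by name.

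Genes were filtered (filterByExpr), scaled (TMM) and tested in R 4.3.3 by the quasi-likelihood F test of edgeR 4.0.16 with robust estimation; p-values of 12929 genes were adjusted after Benjamini and Hochberg. CPM use the TMM factors, except marker sums, which use total counts and an exact permutation test on log2(sum + 1). Standard errors are the log2 change over the root of F. The floor covers counting error only. Alternatives used DESeq2 1.42.0 and limma 3.58.1. On simulated counts (12296 genes tested) the test recovered 35% of the 2-fold changes and 72% of the 4-fold changes.

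The 10 genes, the lists, the naming rule and the alternatives were chosen with earlier results of these data known. The rule named the 10 genes, the called members of each list and up to 3 others in each direction by p. Tnf, Nfkbib, Birc3, Traf1, Icam1, Cd69, Ifng and Gadd45b were chosen after their values were seen, and not every gene of the rule is described. Psd, also outside the rule, was named for its exonic overlap with Nfkb2.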

Additional observations from a re-analysis of the deposited data

Results flagged for a closer look

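In 73 groups of 5 day 7 values (the 10 genes, group means, named list genes and marker sums), 5 had a single library far from the other 4 by Dixon's criterion, which chance meets in about 1 of 20 groups. The mean of log2(CPM + 1) over the 5 subunit genes was highest in library 6 at 6.90, with the next at 6.69. None of the 10 genes met the criterion alone. Il1rap had one library at 34.7 CPM with the next at 18.9 CPM, Tnfrsf1a one at 44.8 CPM with the next at 59.0 CPM, and Fth1 one at 669 CPM with the next at 555 CPM. The neutrophil markers summed to 9.05 CPM in library 5 and to at most 0.411 CPM in the other day 7 libraries.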

How the results depend on the processing

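No paired analysis was possible because the columns' digits do not follow the replicate numbers of the titles. The number of genes called over all genes was 375 with no filter on low counts, 813 with DESeq2, 95 with limma-voom and 128 with sample weights, beside 199, and lay between 127 and 189 with 1 library left out. Those called lower were 126 with no filter, 189 with DESeq2 and 107 without day 7 libraries 5 and 6, beside 61, and 30 to 59 with 1 library left out. Of the 10 genes, 1 was called with DESeq2, limma-voom, limma-voom with sample weights or edgeR without robust estimation, and 3 without day 7 libraries 5 and 6, beside 0; with 1 library left out the number was 0 to 1. The gene called by these tools was Tnfaip3, at log2 changes of -1.25 (DESeq2 and edgeR without robust), -1.27 (limma-voom), -1.31 (sample weights) and -1.63 (without libraries 5 and 6). With 1 library left out its log2 change ran from -1.50 to -0.94. Without libraries 5 and 6 Nfkbid (-1.48) and Nfkbiz (-0.89) passed too. The sign turned for Nfkb2 (0.25 without day 0 library 3), Rel (-0.21 without libraries 5 and 6, -0.018 without library 6), Rela (-0.028 without day 7 library 3) and Nfkbia (0.013 without day 0 library 2). With 1 library left out the log2 changes ran from -0.46 to 0.25 for Nfkb2, from -0.018 to 0.24 for Rel, from -0.028 to 0.15 for Rela and from -0.54 to 0.013 for Nfkbia. In the pathway lists 9 genes were called with no filter, 11 with DESeq2 and 9 without libraries 5 and 6, beside 4, and 3 to 7 with 1 library left out. The causes were not tested. Scaling (RLE, upper-quartile or library sizes alone), a minimum mean of 5 CPM and halved counts turned no sign or call of the 10 genes. Where a day 0 library is left out, the lone one is assumed to vary like day 7.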

Other observations

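Gadd45b, a stress-induced NF-kappaB target, was at 62.5 and 66.3 CPM on day 0 and on day 7 at 21.9, 39.6 and 20.6 CPM (libraries 1, 2 and 3) or 130.5 and 117 CPM (libraries 5 and 6). Csf1, a growth factor gene of macrophages, was at 2.58 and 3.71 CPM on day 0 and on day 7 at 4.29, 13.6 and 12.3 CPM in libraries 1, 2 and 3, against 55.0 and 46.9 CPM in the other pair. These values were picked after they were seen, and the part of the other cells whose markers were high in libraries 5 and 6 was not tested.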
